A study of Mus musculus with 8 samples.

Results

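The SWI/SNF genes described here are 10 subunits of the mouse BAF chromatin remodelling complexes, Smarca4, Smarcb1, Smarcc1, Smarcc2, Smarcd1, Smarcd2, Smarce1, Arid1a, Arid2 and Actl6a. They were chosen by name from the 33435 named genes of the count table, and all 10 were present and had enough counts to be tested. RNA sequencing covered 8 libraries of myeloid progenitors. Stem and progenitor cells from the livers of C57BL/6J fetuses (stage E14.5) were infected, and myeloid progenitors were sorted from them. The GFP group (4 libraries) received a control virus carrying GFP, which the design text of the series calls an empty vector, and the Trim27 group (4 libraries) received a virus carrying Trim27. The strain, the stage, the infection and the sort were thus common to both groups, and no genotype other than the strain was given. The sources used here do not give the promoter of the virus, the gates of the sort or whether a group's libraries came from separate animals or cultures. The p-values thus rest on the spread among these libraries alone, and that spread may be technical.

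SWI/SNF complexes use the energy of ATP to slide or evict nucleosomes, which opens DNA to transcription factors. A complex holds either of the ATPases encoded by Smarca4 (BRG1) and Smarca2 (BRM) on a scaffold of Smarcc, Smarcd and other subunits, and each of the Smarcc, Smarcd, Arid1 and Actl6 families offers alternative members. The canonical BAF complex is marked by Arid1a or Arid1b and a Dpf subunit, the PBAF complex by Arid2, Pbrm1, Brd7 and Phf10, and the non-canonical BAF complex by Brd9 with Bicra or Bicral. In blood, Smarca4 and Arid1a are needed for normal progenitor differentiation, and Smarcd2 is required for granulocyte maturation, where it works with the granulocyte factor encoded by Cebpe.

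The promoters of the scaffold pair Smarcc1 and Smarcc2 are printed because these paralogs moved in opposite directions under TMM scaling, and that of Smarcd2 because it held the fewest CpG dinucleotides. RefSeq promoter windows (GRCm38.p6, 250 bases before to 50 after a start site) were found for 8 of the 10 genes, all but Smarce1 and Arid2. Capitals mark the GC box GGGCGG, the core letters bound by Sp1-type factors, on either strand. The windows are at chr9:110131774-110132073 (plus strand), chr10:128458986-128459285 (plus strand) and chr11:106267583-106267882 (minus strand) in this order.
Smarcc1: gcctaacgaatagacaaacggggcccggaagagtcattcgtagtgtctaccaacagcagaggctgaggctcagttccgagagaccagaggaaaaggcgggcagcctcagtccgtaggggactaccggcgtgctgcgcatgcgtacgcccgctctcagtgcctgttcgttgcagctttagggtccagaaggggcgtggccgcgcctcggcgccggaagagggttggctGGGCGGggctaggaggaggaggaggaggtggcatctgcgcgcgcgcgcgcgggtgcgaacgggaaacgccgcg
Smarcc2: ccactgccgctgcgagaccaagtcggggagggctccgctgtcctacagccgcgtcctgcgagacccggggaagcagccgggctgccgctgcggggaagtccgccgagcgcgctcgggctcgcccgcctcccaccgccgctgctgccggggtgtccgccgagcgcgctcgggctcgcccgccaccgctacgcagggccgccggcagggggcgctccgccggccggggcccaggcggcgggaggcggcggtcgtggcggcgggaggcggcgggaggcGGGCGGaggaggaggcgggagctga
Smarcd2: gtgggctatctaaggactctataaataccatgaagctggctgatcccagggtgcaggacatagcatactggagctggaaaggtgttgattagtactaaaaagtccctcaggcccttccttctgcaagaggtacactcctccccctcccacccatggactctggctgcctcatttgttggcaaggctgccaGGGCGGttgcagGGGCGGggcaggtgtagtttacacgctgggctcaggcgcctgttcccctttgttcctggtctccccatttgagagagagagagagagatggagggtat
All 8 members with a window held at least 1 GC box, against 38.2% of the 27025 genes with a window. Those windows had a median of 52.7% G or C, and the share among windows as rich in CpG as the members was not computed. The Smarcc1 window had 33 CpG dinucleotides and 66.0% G or C, and the Smarcc2 window had 48 and 81.0%. The Smarcd2 window had 4 CpG dinucleotides and 55.0% G or C, while the windows of the other members had at least 21, beside a median of 7 over all windows. It lies inside the annotated Smarcd2 gene (chromosome 11, 106263179 to 106272972 in GENCODE), and the Smarcc1 window lies inside Smarcc1 (chromosome 9, 110117708 to 110240178), so both stand for internal RefSeq starts and not the outermost ones. The letters CCGGAAGT (ETS factors), GAGGAAGT (PU.1), CACGTG (E-box) and CCAAT, searched on both strands, were in none of the windows of these 8 genes, and in those of 4.31%, 3.69%, 8.09% and 41.1% of all genes.

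GFP libraries held 9257889 to 10747794 counts each, and Trim27 libraries 10551137 to 16366571. Genes with a count numbered 11131 to 11850 per GFP library and 12962 to 13283 per Trim27 library. At similar depth, GFP replicate 4 had 11131 and Trim27 replicate 4 had 12962. Correlations of log2 CPM between libraries were 0.985 to 0.993 within groups and 0.734 to 0.755 between them. Whether this gap bears on genes with few GFP counts, such as Smarca2, was not tested. The level of Trim27 itself, in CPM relative to the TMM-scaled library size, was 180.5 ± 8.52 with the GFP virus and 292.7 ± 18.4 with the Trim27 virus (SD, n = 4 each). All 15 myeloid progenitor markers looked up had counts in at least 1 library, and their sum ran from 2175 to 2278 CPM over GFP libraries and from 2380 to 2617 CPM over Trim27 libraries. The higher Trim27 sum rests on Csf2rb, whose mean was 471.6 CPM with the GFP virus and 1193 CPM with the Trim27 virus. Prtn3, the largest of these markers with the GFP virus, had means of 693.9 and 413.6 CPM in the same order. Of the 15, 5 rose and 9 fell, where 47.5% of all tested genes rose and 38% fell. Csf3r, the G-CSF receptor, had 0 counts in every GFP library and 163 to 248 in each Trim27 library. Fcgr2b also rose, by 3.17 on the log2 scale. Csf1r fell by 3.59, with a mean of 33.3 CPM for the GFP virus and 2.79 CPM for the Trim27 virus. Falls on the same scale were 1.11 for Fcgr3, 1.05 for Cd34, 0.75 for Prtn3 and 0.60 for Kit. Markers of other cells differed between the groups. The summed level of 10 macrophage markers ran from 0 to 1.20 CPM over GFP libraries and from 22.9 to 33.9 CPM over Trim27 libraries. The Trim27 sum came from Slc40a1 (mean 18.1 CPM) and Adgre1, listed as Emr1 (mean 10.8 CPM). C1qa, C1qc, Mrc1, Marco, Cd163, Vcam1 and Timd4 were at 0 in every library. The sum of 12 hepatocyte markers was 1.20 to 1.70 CPM and 15.1 to 17.6 CPM, with Alb, Ttr, Apob and 5 more at 0 throughout. Most of the Trim27 hepatocyte sum was Afp (mean 9.25 CPM) and Apoa1 (mean 6.05 CPM). Erythroid markers (13 in the table) summed to 2391 to 2412 CPM with the GFP virus and 1938 to 2095 CPM with the Trim27 virus, 7 megakaryocyte markers to 1049 to 1134 CPM and 808.8 to 849.4 CPM, 10 B cell markers to 66.6 to 160.5 CPM and 41.1 to 56.2 CPM, and 12 endothelial and stromal markers to 76.1 to 85.1 CPM and 34.1 to 35.3 CPM. Most of the endothelial and stromal fall was in Pdgfrb (mean 45.9 to 5.58 CPM), while Col1a2 went from 0 to 1.96 CPM. These sums thus rest largely on a few genes. The part of these cells in the SWI/SNF values was not tested, and in bulk RNA fewer cells of a type and less RNA per cell cannot be told apart.

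Of the 10 subunit genes, 5 rose with the Trim27 virus (Smarcc2, Actl6a, Smarcd1, Arid2 and Smarcd2), 3 fell (Arid1a, Smarcc1 and Smarcb1) and 2, Smarca4 and Smarce1, did not pass the test. Smarcc2 rose 2.84-fold and was the only member past 2-fold. The other 7 that passed changed 1.25-fold to 1.43-fold. The background was high, since 85.5% of the 11040 genes tested passed (47.5% rose and 38% fell), and the groups did not overlap for 80.7%. Among the 5609 tested genes in the abundance range of the members (3.93 to 8.27 log2 CPM) 86% passed, 42.1% rising and 43.9% falling, and 81.6% had groups that did not overlap. The 8 of 10 members that passed, and the same number with no overlap, are thus near the share of all genes. A rise of at least 2-fold was found for 31.3% of all tested genes and 17.7% of those in the abundance range, beside 1 of 10 members. The median log2 fold change of the members was 0.21, against 0.14 over all tested genes. Over the 5609 genes in the abundance range the median was -0.02. Over the 4152 genes within both the abundance range and the transcript length range of the members it was 0.11. All of these calls come from the quasi-likelihood test of edgeR, at a Benjamini-Hochberg adjusted p under 0.05 over all tested genes. Summed over the 10 genes, GFP libraries held 974.0 to 1039 CPM and Trim27 libraries 962.9 to 1062 CPM, and these ranges overlap.

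**Figure D1:**
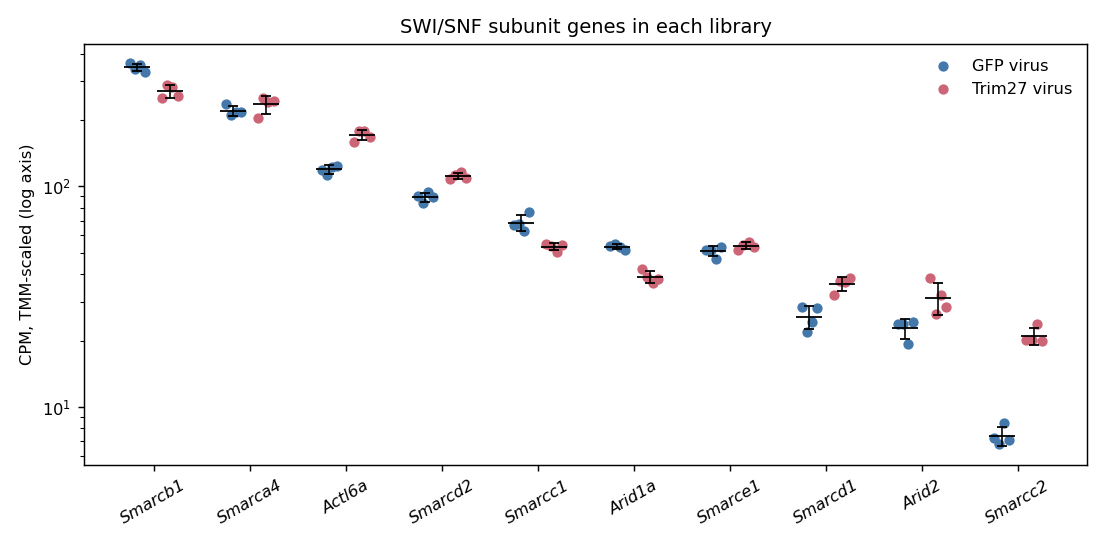
Level of each of the 10 subunit genes in every library, in TMM-scaled CPM on a log axis, for the GFP virus (blue) and the Trim27 virus (red), with mean and SD (n = 4 each) in black. Smarcc2 has the widest gap between the groups, and the libraries of Smarca4 and of Smarce1 overlap between the groups.

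The calls depended on the scaling, and for some members so did the direction. With library size alone as scaling the median over all tested genes was 0.44 on the log2 scale in place of 0.14, and then 7 members rose and 0 fell, with Smarcb1 at -0.05 (adjusted p = 0.304), Smarcc1 at -0.06 (adjusted p = 0.43) and Arid1a at -0.15 (adjusted p = 0.0678). Relative to the median of all genes both scalings gave equal values to 2 decimals, with Smarcb1 at -0.49, Smarcc1 at -0.50 and Arid1a at -0.59. Fold changes also moved when a trend on transcript length was removed, by an amount that depended on the genes used to fit it. Arid1a, at -0.46 with TMM, was at -1.33 with the trend of all genes removed and at -0.55 with that of abundant genes. With each library's trend on length removed, 2 members rose (Smarcc2 and Actl6a), 6 fell and 2 did not pass. When that trend was fitted on abundant genes only, 5 members rose and 3 fell, and all 10 had the call they had with TMM.

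**Figure D2:**
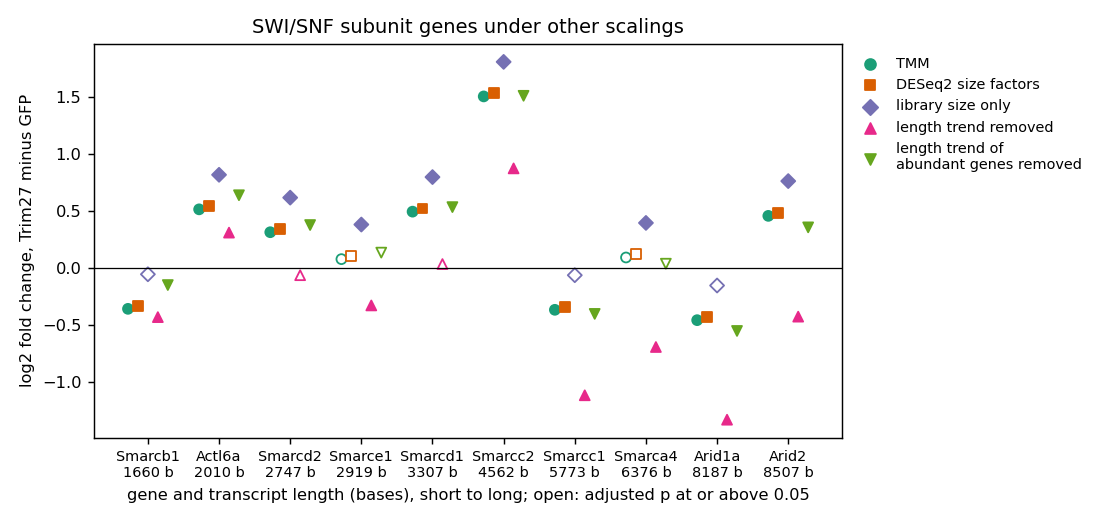
Log2 fold change (Trim27 minus GFP) of the 10 subunit genes under 5 scalings, ordered by transcript length in bases from short to long, with open symbols for an adjusted p of 0.05 or more. Smarcc2, Actl6a and Smarcd1 lie above 0 under all 5, with Smarcd1 at only 0.04 when the length trend is removed. Arid1a, Smarcc1 and Smarcb1 lie below 0 under all 5. The long transcripts move most when the length trend of all genes is removed.

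Smarca4 encodes the ATPase BRG1. It was at 237.2, 210.9, 216.3 and 216.7 CPM over GFP replicates 1 to 4, and at 204.3, 252.8, 240.3 and 243.7 CPM over Trim27 replicates 1 to 4. Trim27 replicate 1 lay below every GFP library and the other Trim27 libraries lay above them all. The log2 fold change was 0.09 (95% interval -0.02 to 0.21, adjusted p = 0.134 by edgeR). It was 0.13 without Trim27 replicate 1 and then passed (adjusted p = 0.00714), and 0.025 without Trim27 replicate 2. Smarca4 also passed with library size alone (0.40, adjusted p = 2.44e-07), upper-quartile factors (0.14, adjusted p = 0.0235), no filter (0.12, adjusted p = 0.0312) and abundant genes only (0.31, adjusted p = 8.99e-05). With the length trend removed it was -0.69 (adjusted p = 1.24e-10), so neither its call nor its direction held over the settings.

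The alternative ATPase gene Smarca2 had almost no counts in the GFP libraries, where fewer genes were detected than in the Trim27 libraries. It had 3 counts, all in GFP replicate 1, over the GFP libraries, and 166, 142, 148 and 114 counts over Trim27 replicates 1 to 4. The level in the Trim27 group was 109-fold that in the GFP group (95% counting interval 37.1 to 530.5). Without GFP replicate 1 no count was left in the GFP group. Counted per base of transcript, Smarca4 made up 99.8% to 100% of the ATPase counts in each GFP library and 94.998% to 96.5% in each Trim27 library. Smarca2 therefore stayed the minor ATPase transcript in both groups.

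The scaffold subunits Smarcc1 (BAF155) and Smarcc2 (BAF170) pair with each other in the complex. Smarcc1 was at 66.8, 67.7, 63.01 and 76.6 CPM over GFP replicates 1 to 4, and at 54.8, 53.8, 50.6 and 53.98 CPM over Trim27 replicates 1 to 4, with no overlap. It fell by 0.36 on the log2 scale (SE 0.07, adjusted p = 2.97e-05 by edgeR). Smarcc2 was at 7.20, 6.81, 8.49 and 7.09 CPM with the GFP virus and at 20.03, 20.1, 23.8 and 19.9 CPM with the Trim27 virus. Every Trim27 library was above every GFP library. Smarcc2 rose by 1.51 on the log2 scale (SE 0.14, adjusted p = 1.93e-11), and by 0.88 with the length trend removed.

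The balance of this pair does not depend on library scaling, because both counts come from the same library. The log2 ratio of Smarcc1 to Smarcc2 counts was 3.22, 3.31, 2.89 and 3.43 over GFP replicates 1 to 4, against 1.45, 1.42, 1.09 and 1.44 over Trim27 replicates 1 to 4. The difference of means was -1.86 (exact 2-sided permutation p = 0.0286, which is the smallest that 4 against 4 libraries can give, and 0.0381 adjusted over the 4 ratios tested). Per base of transcript, Smarcc1 was 87.9% ± 1.76 of the pair with the GFP virus and 66.8% ± 2.72 with the Trim27 virus (SD, n = 4 each). Smarcc1 stayed the major transcript in all 8 libraries.

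**Figure D3:**
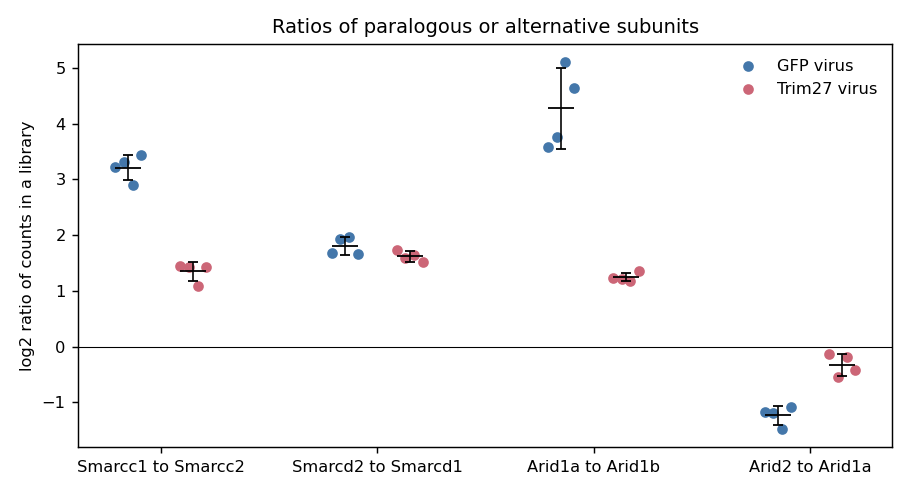
Log2 ratio of the counts of 2 alternative subunits within each library, for GFP (blue) and Trim27 (red), with mean and SD (n = 4 each) in black and a line at equal counts. The groups are apart for Smarcc1 to Smarcc2, Arid1a to Arid1b and Arid2 to Arid1a, and overlap for Smarcd2 to Smarcd1.

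Smarcd2 (BAF60B), the family member linked to granulocytes, was at 90.3, 84.1, 94.2 and 89.5 CPM with the GFP virus and at 107.9, 112.03, 115.8 and 109.7 CPM with the Trim27 virus. The groups did not overlap, and the log2 fold change was 0.32 (SE 0.06, adjusted p = 1.26e-05 by edgeR). With the length trend removed it was -0.06 (adjusted p = 0.362), and it was 0.38 when that trend came from abundant genes. Its relative Smarcd1 (BAF60A) was at 28.3, 21.9, 24.2 and 28.2 CPM with the GFP virus and at 32.3, 37.2, 37.0 and 38.4 CPM with the Trim27 virus, again apart. Smarcd1 rose by 0.50 on the log2 scale (SE 0.10, adjusted p = 3.32e-05), but by 0.04 (adjusted p = 0.734) with the length trend removed, and its exons overlap Gm17349 on the opposite strand. The third family member, Smarcd3 (BAF60C), known from heart and muscle, had 0 counts in the GFP libraries and 2, 6, 4 and 4 in the Trim27 libraries, at least 3.06-fold higher against a floor of 3 counts over the GFP group, or at least 1.53-fold with a floor of 6 counts, for mates counted in pairs. It overlaps Chpf2 on the opposite strand.

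Smarcd2 and Smarcd1 rose side by side, and the test called no difference in their balance. The log2 ratio of Smarcd2 to Smarcd1 counts was 1.81 ± 0.163 with the GFP virus and 1.62 ± 0.0960 with the Trim27 virus (SD, n = 4 each), a difference of -0.19 (exact 2-sided permutation p = 0.114, adjusted 0.114). Smarcd2 made up 80.8% ± 1.75 of the Smarcd counts per base with the GFP virus and 78.5% ± 1.20 with the Trim27 virus. Of the granulocyte genes linked with Smarcd2, Cebpe fell by 0.80 on the log2 scale (adjusted p = 1.59e-08), Gfi1 by 1.16 (adjusted p = 1.1e-07) and Mpo, which encodes myeloperoxidase, by 0.18 (adjusted p = 0.00239), while S100a9 rose by 0.54 (adjusted p = 0.000387). The libraries of S100a9 overlapped between the groups. Over the 16 genes of the granulocyte program 10 were tested, with 1 rise, 6 falls and 3 not called. Over all tested genes 47.5% rose and 38% fell. Ltf, Mmp8 and Mmp9 were at 0 in all libraries. The genes of this program were read under TMM scaling only.

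Smarcb1 (SNF5), a core subunit of canonical BAF and PBAF that contacts the nucleosome, was at 362.04, 340.1, 353.6 and 330.9 CPM with the GFP virus and at 252.4, 289.0, 283.4 and 258.01 CPM with the Trim27 virus. No Trim27 library reached the lowest GFP library. It fell by 0.36 on the log2 scale (SE 0.05, adjusted p = 3.15e-07 by edgeR), and by 0.15 (adjusted p = 0.00525) when the length trend of abundant genes was removed. Smarce1 (BAF57), the DNA-binding HMG box subunit, was at 51.5, 51.6, 46.99 and 53.4 CPM with the GFP virus and at 51.4, 54.5, 56.2 and 53.1 CPM with the Trim27 virus. These ranges overlap, and the log2 fold change was 0.08 (95% interval -0.06 to 0.22, adjusted p = 0.301). With library size alone Smarce1 was at 0.38 and with the length trend removed at -0.33, and both passed.

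Actl6a (BAF53A), the actin-related subunit of dividing progenitors, was at 118.2, 112.5, 122.7 and 123.6 CPM with the GFP virus and at 159.3, 177.5, 178.0 and 167.5 CPM with the Trim27 virus. The groups were well apart. It rose by 0.52 on the log2 scale (SE 0.06, adjusted p = 9.11e-10), and by 0.31 to 0.82 over all the settings tried in which it was tested. Its exons overlap Mrpl47 on the opposite strand, and the sources used here do not give the strand setting of the counting. Its paralog Actl6b, the subunit of neurons, had 0 counts in all 8 libraries. Actb, the actin that sits in the complex and is mostly cytoskeletal, fell from 2874 ± 128.8 to 1761 ± 71.6 CPM (-0.71, SE 0.04, adjusted p = 5.85e-15), although reads can be shared with near-identical actin genes.

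Arid1a (BAF250A), the large DNA-binding subunit of canonical BAF, was at 53.6, 54.7, 53.3 and 51.4 CPM with the GFP virus and at 42.2, 38.8, 36.4 and 37.9 CPM with the Trim27 virus. It fell by 0.46 on the log2 scale (SE 0.08, adjusted p = 2.92e-06 by edgeR) with no overlap of the groups. Its paralog Arid1b was at 4.46, 4.04, 1.55 and 2.06 CPM with the GFP virus and at 17.9, 16.7, 16.1 and 14.8 CPM with the Trim27 virus. Arid1b rose by 2.43 on the log2 scale (SE 0.21, adjusted p = 8.41e-12), and by 1.505 with the length trend removed.

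Arid2 (BAF200), which takes the place of Arid1 in PBAF, was at 23.8, 23.8, 19.3 and 24.3 CPM with the GFP virus and at 38.3, 26.5, 32.2 and 28.3 CPM with the Trim27 virus. The groups did not overlap, but Trim27 replicate 2 lay close to the GFP libraries. Arid2 rose by 0.46 on the log2 scale (SE 0.11, adjusted p = 0.00046), and by 0.32 without Trim27 replicate 1. With the length trend removed it was lower, at -0.42 (adjusted p = 0.000558), so its direction rests on the scaling.

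The balance among the Arid subunits shifted within libraries. The log2 ratio of Arid1a to Arid1b counts was 3.59, 3.76, 5.10 and 4.64 over GFP replicates 1 to 4, against 1.23, 1.22, 1.18 and 1.36 over Trim27 replicates 1 to 4, a difference of means of -3.02 (exact 2-sided permutation p = 0.0286, adjusted 0.0381). Per base of transcript, Arid1a was 96.1% ± 1.74 of the pair with the GFP virus and 76.7% ± 0.938 with the Trim27 virus (SD, n = 4 each). The log2 ratio of Arid2 to Arid1a counts rose from -1.23 ± 0.167 to -0.32 ± 0.196, a difference of 0.91 (exact 2-sided permutation p = 0.0286, adjusted 0.0381). Arid1a (8187 bases) and Arid2 (8507 bases) have transcripts of nearly the same length, so this ratio compares genes alike in that respect.

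Among the other 21 SWI/SNF genes looked up, 15 were tested, with 6 rises, 6 falls and 3 below the threshold of the test (median -0.01 on the log2 scale), beside 85.5% of all tested genes passing. Of the 4 PBAF genes, Arid2, Pbrm1 and Brd7 rose and Phf10 fell, where 47.5% of all tested genes rose and 38% fell, and of the 3 that rose only Brd7 was above 0 with the length trend removed. The reader protein gene Brd7 rose from 32.6 ± 3.08 to 99.8 ± 4.27 CPM (SD, n = 4 each), or by 1.62 on the log2 scale (SE 0.07, adjusted p = 4.61e-18 by edgeR), with 28.2 to 35.1 CPM with the GFP virus and 95.8 to 104.6 CPM with the Trim27 virus. Pbrm1, which encodes the bromodomain protein polybromo, rose by 0.72 (adjusted p = 2.55e-05), with Trim27 replicate 1 highest at 35.8 CPM against 22.8 to 25.5 CPM in the other Trim27 libraries. With the length trend removed Pbrm1 was at -0.15 (adjusted p = 0.258). Phf10 fell by 0.69 (adjusted p = 1.9e-07) and overlaps 1600012H06Rik on the opposite strand.

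Of the 3 non-canonical BAF genes, Brd9 and Bicra fell and Bicral rose. Brd9, the bromodomain subunit that marks this complex, was at 39.8, 36.6, 41.3 and 40.6 CPM with the GFP virus and at 5.96, 7.64, 6.57 and 6.45 CPM with the Trim27 virus. It fell by 2.57 on the log2 scale (SE 0.11, adjusted p = 2.45e-18 by edgeR), the largest fall of any SWI/SNF gene tested, and its log2 fold change lay between -2.88 and -2.26 over all the settings tried in which it was tested. Bicra, listed in the table as Gltscr1, fell by 1.05 (SE 0.19, adjusted p = 1.19e-05). Its relative Bicral, listed as Gltscr1l, had 1 count over the GFP libraries and 85 over the Trim27 libraries, the 1 count being in GFP replicate 1, a ratio of 48.8 (95% counting interval 8.53 to 1950). Exons of Bicral overlap Gm26904 on the opposite strand, by up to 772 bases.

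Subunits of the canonical complex and shared small subunits were mixed. Ss18, known from the fusion gene of synovial sarcoma, rose from 12.1 ± 1.40 to 38.2 ± 1.46 CPM (1.67, SE 0.11, adjusted p = 7.43e-15 by edgeR). Dpf2, which reads histone acylation, was at 39.6 ± 1.75 and 42.5 ± 2.27 CPM (0.10, adjusted p = 0.234). Its relatives were scarce. Dpf1 had 6 to 13 counts in each GFP library and 4 in each Trim27 library, and Dpf3 had 0 counts in the GFP libraries and 4, 34, 15 and 3 in the Trim27 libraries, at least 10.7-fold higher. That bound was 5.71-fold without Trim27 replicate 2 and 5.36-fold with a floor of 6 counts. Bcl7c fell by 0.56 (adjusted p = 2.43e-06), but not when the length trend of abundant genes was removed (adjusted p = 0.284), while Bcl7a (-0.22) and Bcl7b (-0.01) did not pass. Bcl11a, a zinc finger protein that joins BAF complexes, fell by 0.32 (adjusted p = 0.00148), though with library size alone it was at -0.02 (adjusted p = 0.854). Bcl11b had 2 counts over the GFP libraries and 11 over the Trim27 libraries, and Ss18l1 had 2 counts in GFP replicate 2 only.

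**Figure D4:**
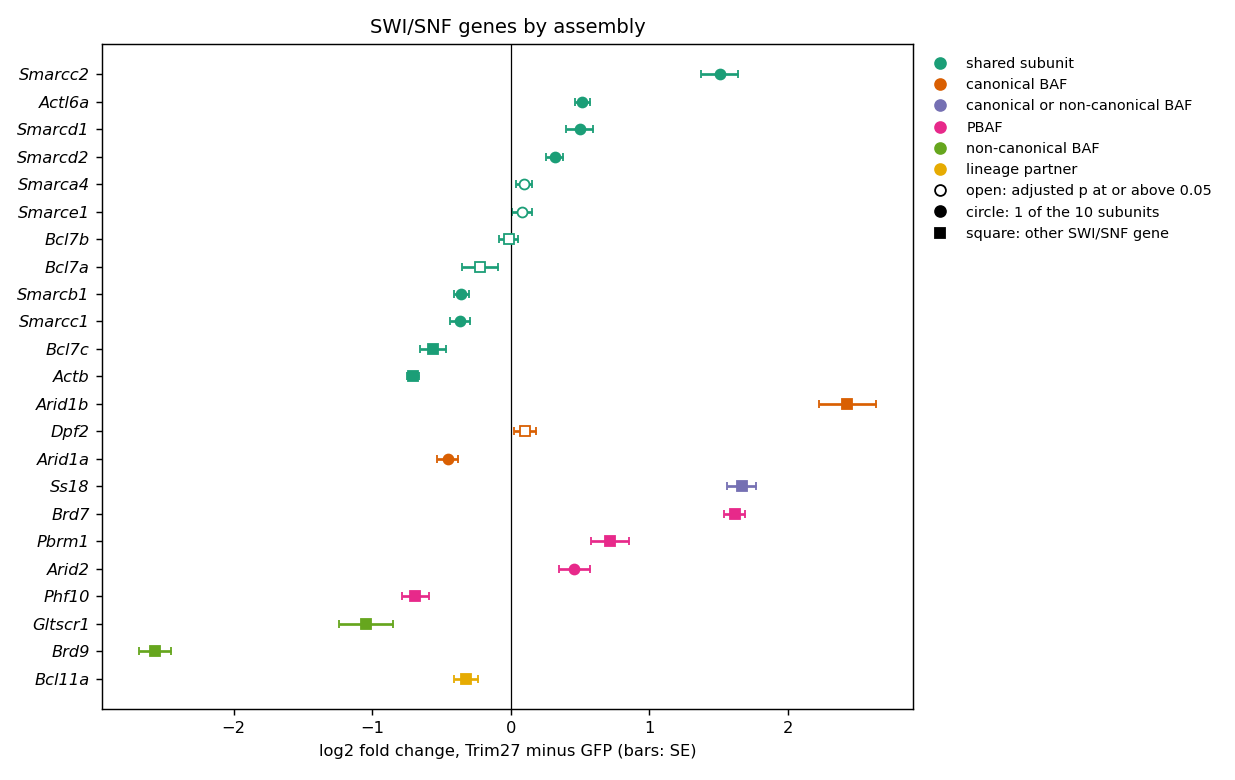
Log2 fold change (Trim27 minus GFP) with SE for the SWI/SNF genes that were tested and had more than 3 counts over the GFP libraries, coloured by the assembly they belong to, with open symbols where the adjusted p was 0.05 or more. Brd9 lies at -2.57 and Arid1b at 2.43, while 9 of the 10 subunit genes (circles) lie between -0.46 and 0.52.

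Levels can be compared between genes only per length of transcript. In the GFP group, CPM per kilobase was 208.8 ± 8.35 for Smarcb1, 59.3 ± 2.53 for Actl6a, 34.5 ± 1.81 for Smarca4 and 32.6 ± 1.52 for Smarcd2 (SD, n = 4 each). Smarca4 and Smarcd2, next to each other in this order, lay within their spread. Smarce1 (17.4 ± 0.933), Smarcc1 (11.9 ± 0.996), Smarcd1 (7.75 ± 0.952) and Arid1a (6.50 ± 0.167) followed on the same scale, and Arid2 (2.68 ± 0.278) and Smarcc2 (1.62 ± 0.164) were lowest. In the Trim27 group Smarcd2 (40.5 ± 1.24) stood above Smarca4 (36.9 ± 3.34), Smarcd1 (11.0 ± 0.816) above Smarcc1 (9.23 ± 0.318), and Smarcc2 (4.60 ± 0.414) lay between Arid1a (4.74 ± 0.298) and Arid2 (3.68 ± 0.612). Smarcd2 and Smarca4, Smarcc2 and Arid1a, and Smarcc2 and Arid2 lay within their spread there. The lengths are of the longest GENCODE transcript, and even coverage along it was not tested.

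Within the GFP group the coefficient of variation of the members' CPM was 2.56% (Arid1a) to 12.3% (Smarcd1). In the Trim27 group it was 3.06% (Smarcd2) to 16.6% (Arid2). That of all tested genes was not computed. Over the 8 libraries, Ube3b (r = 0.998), Coq9 (r = 0.996) and Smim5 (r = 0.993) had the log2 CPM most like that of Smarcd2 among 2553 abundant genes. Ndufa13 (r = 0.994), Ehd1 (r = 0.992) and Guk1 (r = 0.989) had deviations from the group means most like those of Smarca4. These are the highest of many correlations over 8 points that share library scaling, and for Smarcd2 also the difference between groups, and are given as a description.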

How the data were processed

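The deposited data are unnormalized read counts for each gene symbol and library. HISAT2, featureCounts, bcl2fastq and the build NCBIM37 are named in the submitters' processing notes. Their versions, the annotation, and how strand and multiply matched reads were handled are not given in the sources used. One line without a gene name was left out. Of the deposited counts from 1 to 10, 64.7% to 72.0% per library were even, as if both mates of a pair were counted, so counting intervals, which cover counting error only, may be too narrow and fold bounds too high.

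Counts were fitted in R 4.3.3 with edgeR 4.0.16 (filterByExpr, minimum count 10 and total 15, TMM, robust quasi-likelihood test, no covariate, all 8 libraries). The SE is the log2 fold change over the root of F, and 95% intervals are normal. The fit was tested on simulated data. Ratios of counts within a library were computed where both genes had at least 10 counts in all libraries (4 of 6 planned). A group with 0 counts was set to a floor of 3 counts over the group. Alternatives included DESeq2 1.42.0, limma 3.58.1 (voom) and lowess offsets on the longest GENCODE M21 transcript, by symbol. Exon overlaps are from GENCODE M21 (GRCm38), promoters from RefSeq (GRCm38.p6), not the authors' build.

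The members and gene lists were chosen with earlier results of these data known. All 10 members are named whatever their p. Other SWI/SNF genes with a count could be named, and of other remodellers the called genes that rose most (3) and fell most (3) among those whose mean was 3 log2 CPM or more. Of the granulocyte program Cebpe, Gfi1, Mpo and S100a9 are named, and for likeness the 3 most correlated genes whose mean was 6 log2 CPM or more.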

Additional observations from a re-analysis of the deposited data

Results flagged for a closer look

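One library stood apart from the others of its group for 3 SWI/SNF genes, by the ratio of its gap to the range of the 4 libraries. Chance gives such a ratio in about 1 of 20 groups, and 49 groups were looked at. Smarcc2 was at 23.8 CPM in Trim27 replicate 3 and at 19.9 to 20.1 CPM in the other Trim27 libraries. Without that library its log2 fold change was 1.41. Arid2 was at 19.3 CPM in GFP replicate 3 and at 23.8 to 24.3 CPM in the other GFP libraries. Actb was at 1867 CPM in Trim27 replicate 1 and at 1717 to 1737 CPM in the other Trim27 libraries, and its log2 fold change was -0.77 without that library.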

How the results depend on the processing

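Calls are at an adjusted p under 0.05. Beside 5 members that rose and 3 that fell, there were 2 and 6 with the length trend removed, 7 and 0 with library size alone, 1 and 0 for a change above 1.5-fold by glmTreat, and 3 and 1 of the 4 members tested with abundant genes only, an alternative chosen after seeing the data. With halved counts, also chosen after seeing the data, the calls were 5 and 3. Other SWI/SNF genes that fell were 3 in place of 6 by glmTreat. With the length trend removed the log2 fold change reversed for Smarca4 (-0.69), Smarcd2 (-0.061), Smarce1 (-0.33), Arid2 (-0.42), Dpf2 (-0.36) and Pbrm1 (-0.15), and the cause was not tested. Bcl7a was at 0.083 with library size alone. Bcl7b, at -0.01 with TMM, turned to 0.29 (library size alone), 0.16 (length trend of abundant genes), 0.034 (upper quartile), 0.013 (DESeq2 size factors), 0.013 (DESeq2 Wald test), 0.015 (no filter), 0.0026 (10 CPM in at least 4 libraries), 0.0011 (without GFP replicate 1) and 0.0072 (without GFP replicate 4), in a range of -0.069 to 0.0072 with 1 library left out. Leaving out 1 library at a time kept the direction and call of the 8 members that passed. Bcl7a passed with the length trend removed (-0.87), without GFP replicate 2 (-0.30) and without Trim27 replicate 1 (-0.33). The 4 ratio differences kept their sign without each library. Replicate numbers gave no clear pairing of the libraries (correlations of deviations -0.53 to 0.12 over the 4 numbers), though so few numbers cannot exclude a paired design. Only GFP replicate 3 was most like the Trim27 library of its own number. With the replicate number as a block 9160 genes passed in place of 9442, with 5 members up and 3 down. The share of rises among calls was 55.6% with TMM, 66.9% with library size alone, 47.5% with the length trend removed and 64.5% with that of abundant genes removed. Counts limit Smarca2, Smarcd3, Dpf3, Bicral and Bcl11b, which had 0 to 3 counts over the GFP libraries, and the floor of 6 counts and the bound without 1 library were chosen after seeing the data.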

Other observations

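Genes of other chromatin remodellers, most of them from the ISWI, CHD and INO80 families that also move nucleosomes, moved in both directions. Smarcad1, Hells, Atrx, Smarcal1 and Hltf, from outside these families, were in the list too. Of the 34 genes 33 were tested, with 12 rises, 13 falls and 8 not called (median 0.05 on the log2 scale). Over all tested genes 47.5% rose and 38% fell. Baz2b, a bromodomain partner of ISWI, rose by 3.46 on the log2 scale and the ATPase gene Ino80 by 3.39, from 3.19 ± 0.802 to 33.7 ± 1.04 CPM (SD, n = 4 each). Baz1a, a partner in the ACF complex, rose by 2.16. Baz2a, a partner in the nucleolar remodelling complex, fell by 1.58, Pole3, a histone-fold protein of the CHRAC complex and of DNA polymerase epsilon, by 1.21, and Znhit1, a subunit of the SRCAP complex, by 1.11. Each of these 6 passed edgeR's quasi-likelihood test after Benjamini-Hochberg adjustment. Smarca1, an ISWI ATPase gene, had 0 counts in all 8 libraries, and its paralog Smarca5, named after its values were seen, fell from 55.2 ± 3.37 to 27.2 ± 3.87 CPM.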
